A study of Mus musculus with 6 samples.

Results

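The 8 genes described here are the cartilage and bone genes Sox9, Runx2, Sp7, Acan, Col10a1, Alpl, Ibsp and Spp1, which were measured in regenerating leg muscle. They were picked by symbol, with earlier results of these data known. All 8 had a row among the 16289 genes of the count table, and all 8 passed the filter on low counts. RNA-seq read counts were made from the tibialis anterior, a muscle on the front of the shin, of male C57BL/6J mice aged 12 weeks. The libraries formed 2 groups of 3 mice. Mice of the glycerol+melatonin group had a glycerol injection and melatonin, a pineal hormone, and mice of the glycerol group had the injection and a control treatment. Both groups were sampled 14 days after glycerol, which destroys fibres and is followed by regeneration with fat deposits, so both carried the injury and the comparison holds no uninjured muscle. The labels do not state the dose or route of melatonin or what the control treatment was. The RNA extraction text of the labels names a back muscle, and the tissue label was used.

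Cartilage and bone are made by mesenchymal cells under the control of a few transcription factors. SOX9 sets the cartilage programme and drives matrix genes such as Acan. RUNX2 and then SP7 (osterix) set the bone programme, in which tissue-nonspecific alkaline phosphatase (Alpl) clears pyrophosphate, a blocker of mineral, and bone sialoprotein (Ibsp) and osteopontin (Spp1) are laid down in the matrix. Col10a1 encodes the collagen of hypertrophic cartilage, the stage before cartilage is replaced by bone. In injured muscle, mesenchymal progenitors can form ectopic cartilage and bone, while several of these genes are also used by other cells. Spp1 is made by macrophages, Alpl by endothelium and neutrophils, and Runx2 by many connective tissue cells.

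Libraries held 41204718 to 47945178 counts in glycerol+melatonin muscle and 39310361 to 48879045 counts in glycerol muscle. Muscle fibre markers (6 of 6 genes, among them Ckm and Myh4) summed to 68868 to 107822 CPM (counts scaled by TMM factors to a library total of 1e6) in glycerol+melatonin and 100009 to 122482 CPM in glycerol. The cartilage and bone genes were low beside these. Chondrocyte markers (Sox9, Acan, Col2a1 and Col9a1, 4 of 7 fixed genes) summed to 9.32 to 13.6 CPM in glycerol+melatonin and 10.3 to 15.1 CPM in glycerol. Osteoblast markers (5 of 7) summed to 22.3 to 24.9 CPM in glycerol+melatonin and 24.9 to 37.1 CPM in glycerol, most of it Alpl. Matn1, Hapln1, Cnmd, Bglap and Bglap2, which define mature cartilage and bone cells, were not analysed here.

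Ibsp and Col10a1 were the only 2 of the 8 genes far from 0, both lower in glycerol+melatonin muscle. Ibsp averaged 0.408 ± 0.392 CPM in glycerol+melatonin and 4.18 ± 1.05 CPM in glycerol (SD, n = 3 each). Col10a1 averaged 0.362 ± 0.0575 CPM in glycerol+melatonin and 1.33 ± 0.309 CPM in glycerol (SD, n = 3 each). Neither passed edgeR's quasi-likelihood test at an adjusted p of 0.05, nor did any of the other 6 genes. The count was therefore 0 of 8 against 12 of 16259 genes in the whole table (0.0738%, and 0.0554% as lower). At an unadjusted p under 0.05, 2 of 8 genes were lower by edgeR, against 9.39% of all genes that were lower by this measure and 19.5% in either direction. In 3 of the 8 genes (Ibsp, Col10a1 and Runx2) every glycerol+melatonin library lay below every glycerol library in TMM-scaled CPM. This held for 12.5% of all genes tested, while groups that did not overlap in either direction made up 26.0%. DESeq2, which called 4.85% of its genes (2.72% as lower), called Ibsp and Col10a1. limma-voom called 0 of the 8 genes and 0.0738% of all genes. As the 8 genes were chosen with earlier results of these data known, these shares are not an independent test of them. In whole muscle, fewer cells of a type and less RNA per cell cannot be told apart.

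**Figure D1:**
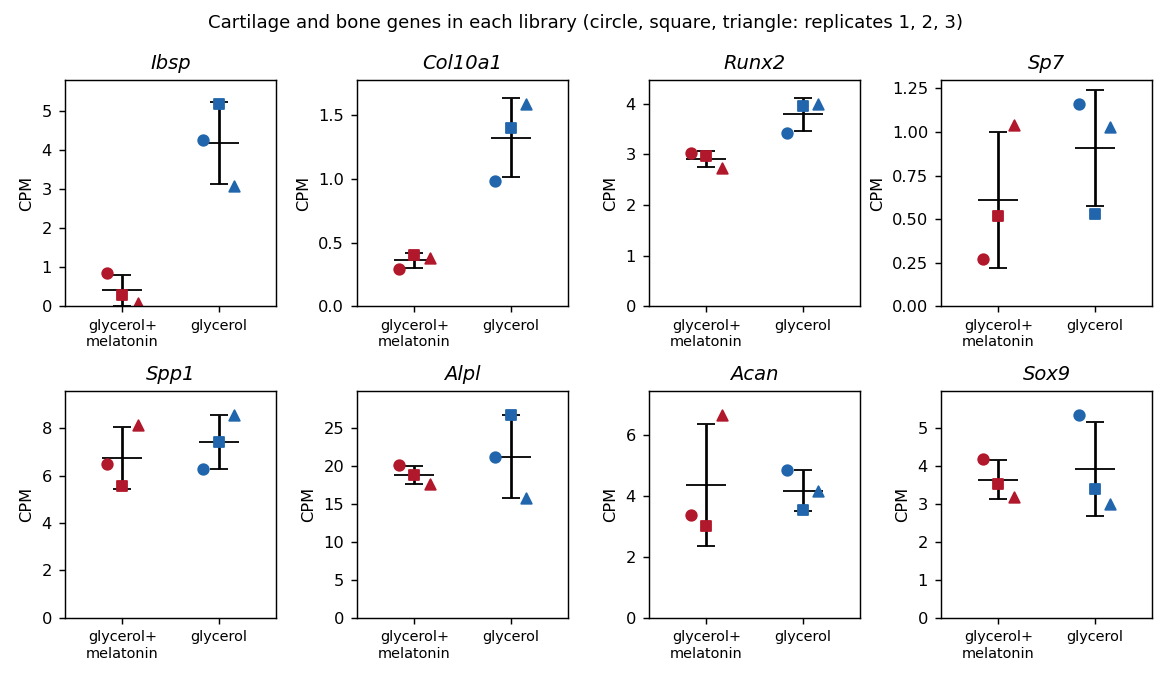
CPM scaled by TMM factors (vertical axes, from 0) of each of the 8 genes in glycerol+melatonin (red, left) and glycerol (blue, right) muscle; points are libraries, bars the mean and SD of 3 mice. The groups stand apart for Ibsp, Col10a1 and Runx2 and overlap for the other 5 genes.

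The stretches of DNA just before the starts of Ibsp, Col10a1 and Spp1 are shown because the first 2 genes had the largest differences, while Spp1, from the same family as Ibsp, had a small one. Each is the 250 bases before a RefSeq start on GRCm38.p6, plus strand, at chr5:104299037-104299286, chr10:34389731-34389980 and chr5:104434861-104435110. Capitals mark matches on either strand to TGTGGT (a core site of RUNX factors), TATAAA (the TATA box), CCAAT (the CCAAT box) and ACAATG (a SOX-type site).
Ibsp: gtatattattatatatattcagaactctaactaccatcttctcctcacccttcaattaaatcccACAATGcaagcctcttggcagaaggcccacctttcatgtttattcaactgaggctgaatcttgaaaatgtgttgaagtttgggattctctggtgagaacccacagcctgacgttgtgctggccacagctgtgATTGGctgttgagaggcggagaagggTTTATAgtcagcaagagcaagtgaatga
Col10a1: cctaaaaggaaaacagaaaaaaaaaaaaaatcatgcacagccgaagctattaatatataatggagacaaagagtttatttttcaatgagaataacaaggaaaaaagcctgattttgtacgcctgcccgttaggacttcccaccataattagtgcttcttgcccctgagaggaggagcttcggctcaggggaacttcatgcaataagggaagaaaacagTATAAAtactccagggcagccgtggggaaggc
Spp1: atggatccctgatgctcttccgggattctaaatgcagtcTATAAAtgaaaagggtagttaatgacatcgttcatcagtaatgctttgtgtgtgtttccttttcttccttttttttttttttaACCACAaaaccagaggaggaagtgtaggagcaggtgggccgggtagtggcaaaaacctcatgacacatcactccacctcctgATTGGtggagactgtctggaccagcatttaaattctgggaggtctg
The TATA box letters began at position -28 in Ibsp, as the reverse complement, at -32 in Col10a1 and at -211 in Spp1, counted back from the start. The CCAAT letters, on the other strand, began at -54 in Ibsp and -46 in Spp1. The RUNX letters occurred in Spp1 at -128 and not in the windows of Ibsp or Col10a1, and the SOX letters occurred in Ibsp at -186. No match overlapped another. RefSeq gives a second start for Spp1, whose window (chr5:104435942-104436191) held none of the 4 sets of letters. The Ibsp window runs 116 bases past the start of the gene in the GENCODE annotation. Of all 32851 promoter windows of this length, 14.0% held the RUNX letters, 12.4% the TATA box, 33.8% the CCAAT box and 10.7% the SOX letters on either strand. RefSeq entries were found for 6 of the 8 genes.

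Ibsp encodes bone sialoprotein, an acidic matrix protein that binds collagen and mineral and starts crystal growth. It had 37, 16 and 4 reads in glycerol+melatonin replicates 1, 2 and 3, against 173, 225 and 126 reads in glycerol replicates 1, 2 and 3. All 3 glycerol+melatonin libraries lay below the lowest glycerol library. Counting error alone (exact Poisson 95% intervals) reached up to 1.16 CPM in the highest glycerol+melatonin library and down to 2.57 CPM in the lowest glycerol library. The fitted log2 fold change was -3.37 ± 0.62 (SE; 95% interval -4.78 to -1.96), a level 10.3-fold lower, with an edgeR adjusted p of 0.111. It ranked 3 from the lowest log2 fold change among the 16259 genes tested, and Col10a1 ranked 56. By edgeR p-value, from the smallest, Ibsp ranked 73 and Col10a1 ranked 66. Mice of the glycerol+melatonin group differed widely among themselves in Ibsp, by 9.93 times between the highest and the lowest CPM, against 1.68 times in the glycerol group. Without glycerol+melatonin replicate 1, the highest of its group, the log2 fold change was -4.41 and passed (edgeR adjusted p = 0.0373). Over all 15 other settings the log2 fold change stayed between -4.41 and -2.89, with adjusted p from 2.86e-07 (DESeq2) to 0.313 (edgeR without glycerol replicate 2).

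Col10a1 encodes the short-chain collagen of hypertrophic chondrocytes. It had 13, 22 and 18 reads in glycerol+melatonin replicates 1, 2 and 3, against 40, 61 and 65 reads in glycerol replicates 1, 2 and 3. The groups did not overlap, and neither did their Poisson intervals, which reached up to 0.615 CPM in glycerol+melatonin and down to 0.706 CPM in glycerol. The log2 fold change was -1.86 ± 0.34 (SE; 95% interval -2.63 to -1.10), 3.64-fold lower, with an edgeR adjusted p of 0.107. By DESeq2 it was -1.88 with an adjusted p of 0.00196.

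Col10a1 (chromosome 10, 34389981 to 34397085 on GRCm38, plus strand) lies wholly inside the bounds of Nt5dc1 (34288288 to 34418552, minus strand). The 2 genes share 18 exon bases. No source used here says whether the authors counted by strand, so reads from Nt5dc1 may be mixed in. Nt5dc1 itself had 203, 191 and 158 reads in glycerol+melatonin and 327, 290 and 295 reads in glycerol (log2 fold change -0.93 ± 0.20, edgeR adjusted p = 0.132). Per 100 Nt5dc1 reads there were 6.40, 11.5 and 11.4 Col10a1 reads in glycerol+melatonin and 12.2, 21 and 22 in glycerol. This ratio was lower in all 3 glycerol+melatonin libraries, by a log2 difference of -0.92, with the smallest p that 3 against 3 allow (exact two-sided permutation test, p = 0.1). The part of Nt5dc1 reads in the Col10a1 counts was not tested.

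The transcription factors showed smaller differences. Runx2, the master regulator of bone formation, had 132, 161 and 128 reads in glycerol+melatonin and 138, 172 and 163 reads in glycerol. In CPM the groups did not overlap, at 2.72 to 3.02 in glycerol+melatonin and 3.41 to 3.99 in glycerol, and the log2 fold change was -0.38 ± 0.20 (SE; 95% interval -0.83 to 0.06, edgeR adjusted p = 0.317). As a fold, the interval runs from 0.562 to 1.05. The separation was seen with TMM factors, while the raw reads overlapped. Scaled by library size alone, the Runx2 log2 fold change was -0.18 (edgeR adjusted p = 0.708). With a correction for transcript length it was -0.22 (edgeR adjusted p = 0.587). Runx2 shares 519 exon bases with the antisense gene Runx2os1, which had 30, 24 and 16 reads in glycerol+melatonin and 14, 10 and 18 in glycerol. That is 22.7%, 14.9% and 12.5% of the Runx2 reads in glycerol+melatonin and 10.1%, 5.81% and 11.0% in glycerol. The part of antisense reads in the Runx2 counts was not tested.

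Sp7, which acts after RUNX2 in bone-forming cells, had 12, 28 and 49 reads in glycerol+melatonin and 47, 23 and 42 reads in glycerol. The groups overlapped: glycerol+melatonin replicate 3 lay with 2 of the glycerol mice, and glycerol replicate 2 lay with glycerol+melatonin replicate 2. The log2 fold change of -0.56 ± 0.52 (SE; edgeR adjusted p = 0.564) has a 95% interval from -1.74 to 0.62. Leaving out 1 library moved it between -1.17 (without glycerol+melatonin replicate 3) and -0.22 (without glycerol+melatonin replicate 1). The mouse with the fewest Ibsp reads was thus the one with the most Sp7 reads in its group.

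Sox9, which sets the cartilage programme, had 184, 191 and 150 reads in glycerol+melatonin and 216, 148 and 123 reads in glycerol. The groups overlapped, and glycerol replicate 1 was the highest of the 6 libraries. Its log2 fold change was -0.11 ± 0.27 (SE; 95% interval -0.71 to 0.50, edgeR adjusted p = 0.852), and 0.18 without glycerol replicate 1. Scaled by library size alone it was 0.11. As a fold, the interval runs from 0.610 to 1.41.

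Acan encodes aggrecan, the large proteoglycan that lets cartilage hold water. It had 148, 163 and 312 reads in glycerol+melatonin and 196, 153 and 170 reads in glycerol. Glycerol+melatonin replicate 3 stood above the other 5 libraries, and the remaining values overlapped. The log2 fold change of 0.06 ± 0.32 (SE; 95% interval -0.68 to 0.79, edgeR adjusted p = 0.940) turned to -0.38 without that library, to -0.05 without glycerol replicate 2 and to -0.03 by limma-voom. In glycerol+melatonin replicate 3, tendon markers (6 of 6 genes) summed to 513.0 CPM, against 243.8 and 340.5 CPM in the other 2 mice of the group and 530.7 to 650.0 CPM in glycerol. The tendon sums of the 2 groups did not overlap. By gene, Thbs4 and Fmod were lower without overlap, while Scx, Tnmd, Mkx and Kera overlapped. Scx, at a log2 fold change of 0.70 ± 0.32, was above 0 and the other 5 were below 0. Neutrophil markers (4 of 6 genes) were at 21.1 CPM in the same library, 5.34 and 8.58 CPM in the other 2, and 4.21 to 4.92 CPM in glycerol. Endothelial markers (6 of 6 genes) were at 1261.1 CPM in this library, 788.8 and 776.1 CPM in the other 2, and 855.2 to 1048.8 CPM in glycerol. Muscle fibre markers, at 68868 CPM, and fibro-adipogenic progenitor markers (stromal cells of muscle), at 852.9 CPM, were the lowest of the 6 libraries. Macrophage markers were at 568.7 CPM in this library and 547.3 and 784.5 CPM in the other 2. The part of these cell types in the Acan value was not tested.

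Alpl was the most abundant of the 8 genes. It had 881, 1017 and 826 reads in glycerol+melatonin and 859, 1161 and 647 reads in glycerol. The glycerol mice spanned the whole range of the other group. The log2 fold change was -0.18 ± 0.21 (SE; 95% interval -0.65 to 0.29, edgeR adjusted p = 0.657), 0.02 without glycerol replicate 2 and 0.05 when scaled by library size alone. Endothelial markers (6 of 6 genes) summed to 776.1 to 1261.1 CPM in glycerol+melatonin and 855.2 to 1048.8 CPM in glycerol, and overlapped. The sums of neutrophil markers (4 of 6 genes) did not overlap, at 5.34 to 21.1 CPM in glycerol+melatonin and 4.21 to 4.92 CPM in glycerol. The value of 21.1 CPM came from glycerol+melatonin replicate 3. By gene, S100a9 and Csf3r did not overlap, while Lcn2 and Mmp8 did. The part of either cell type in the Alpl level was not tested.

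Spp1 encodes osteopontin, an acidic phosphoprotein of bone that macrophages also secrete. It had 285, 302 and 383 reads in glycerol+melatonin and 254, 322 and 349 reads in glycerol, with the groups overlapping. The log2 fold change was -0.14 ± 0.21 (SE; 95% interval -0.62 to 0.35, edgeR adjusted p = 0.755), or 0.07 when scaled by library size alone. Macrophage markers (10 of 10 genes) summed to 547.3 to 784.5 CPM in glycerol+melatonin and 589.1 to 809.3 CPM in glycerol, and also overlapped.

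**Figure D2:**
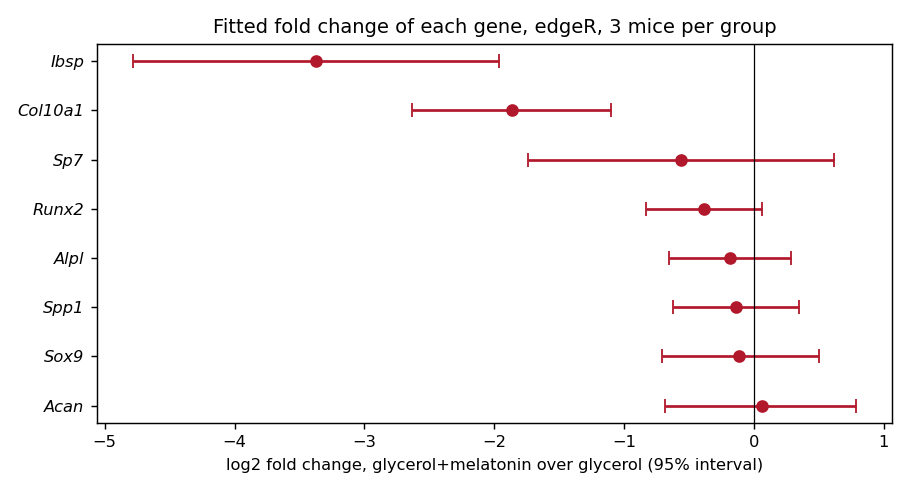
Log2 fold change of glycerol+melatonin over glycerol (horizontal axis) for each gene, with the 95% interval of the edgeR fit on 3 mice per group. The intervals of Ibsp (-4.78 to -1.96) and Col10a1 (-2.63 to -1.10) lie below 0, and the other 6 include 0.

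Ibsp and Spp1 are neighbours as well as relatives. Both belong to the small integrin-binding glycoproteins of bone and tooth, whose genes lie in a row on chromosome 5 of the mouse. On GRCm38 Ibsp runs from 104299171 to 104311469 and Spp1 from 104435118 to 104441050, both on the plus strand and 124 kb apart. Per 100 Spp1 reads, Ibsp had 13.0, 5.30 and 1.04 reads in glycerol+melatonin and 68.1, 69.9 and 36.1 reads in glycerol. This ratio, which needs no scaling between libraries, did not overlap between the groups (log2 difference -3.74, exact two-sided permutation test p = 0.1, the smallest that 3 against 3 allow). Ibsp reads were already known to lie apart and Spp1 to differ little (-0.14), so the ratio is not a separate test of Ibsp. Per 100 Runx2 reads, Ibsp had 28.0, 9.94 and 3.12 reads in glycerol+melatonin and 125.0, 131.0 and 77.3 reads in glycerol. Dmp1, another member of the row and a gene of osteocytes, had 27, 46 and 42 reads in glycerol+melatonin and 24, 31 and 37 in glycerol (log2 fold change 0.09 ± 0.33, edgeR adjusted p = 0.900). Pkd2, a calcium channel gene next to Spp1, was at 0.02 ± 0.16 (edgeR adjusted p = 0.966).

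Levels of different genes were compared per length, as TPM (counts divided by the length of the longest annotated transcript and scaled to a total of 1e6), without TMM factors. In glycerol+melatonin the order was Alpl (mean 13.0 TPM), Spp1 (7.82), Sox9 (1.53), Acan (1.04), Runx2 (0.787), Sp7 (0.353), Ibsp (0.327) and Col10a1 (0.205). There Sox9 and Acan, Acan and Runx2, Sp7 and Ibsp, Sp7 and Col10a1, and Ibsp and Col10a1 overlapped in their ranges. In glycerol it was Alpl (mean 12.6 TPM), Spp1 (7.57), Ibsp (3.01), Sox9 (1.40), Runx2 (0.894), Acan (0.858), Col10a1 (0.656) and Sp7 (0.445). There Runx2 and Acan, Runx2 and Col10a1, Acan and Col10a1, and Col10a1 and Sp7 overlapped. Ibsp was at 0.0734 to 0.634 TPM in glycerol+melatonin and 2.63 to 3.62 TPM in glycerol, and it is the gene whose place in the order differed most. As a share of the reads of the 8 genes, Ibsp took 2.19%, 0.842% and 0.214% in glycerol+melatonin and 9%, 9.93% and 7.48% in glycerol.

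**Figure D3:**
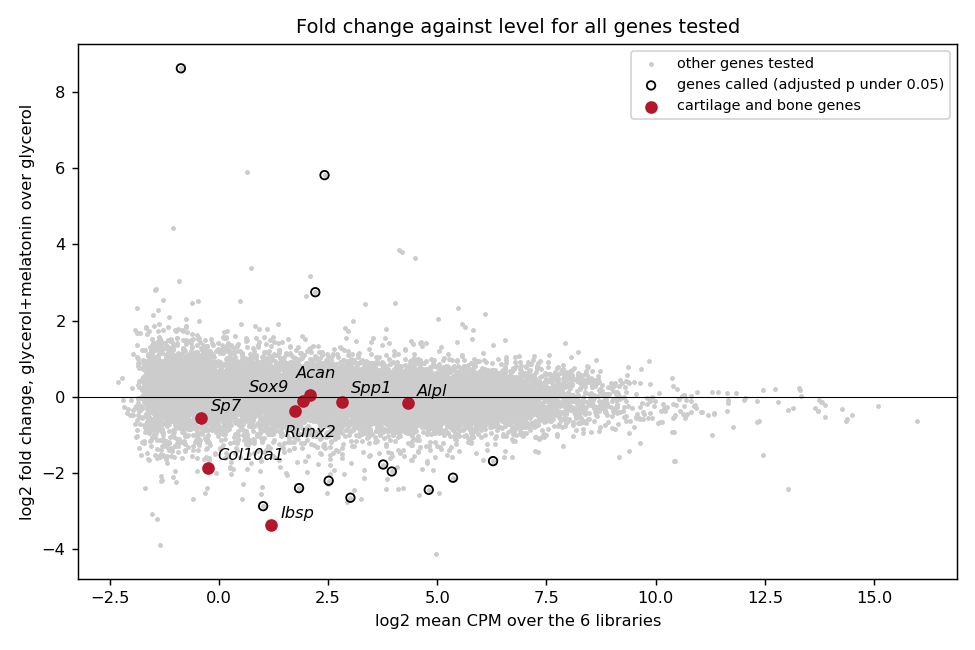
Log2 fold change of glycerol+melatonin over glycerol (vertical axis) against log2 mean CPM (horizontal axis) for the 16259 genes tested, with the 12 called genes circled and the 8 cartilage and bone genes in red. Ibsp, at -3.37, lies below the circled genes but was not called, and 6 of the 8 lie inside the cloud of other genes.

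Genes around these 8 were counted in 8 further lists, none of which held a called gene. The lists too were chosen with earlier results known, so their counts beside all genes are descriptive. Of the 8 genes themselves, 7 were below 0, with a median log2 fold change of -0.28. Over all genes tested the median was 0.02, with 7855 of 16259 genes below 0 (48.3%). Of 13 cartilage matrix and chondrocyte genes, 12 were below 0 and 1 above, with a median of -0.55. The lubricin gene Prg4 was at -1.23 ± 0.42, the leucine-rich repeat protein gene Chad at -1.18 ± 0.61 and the collagen-binding proteoglycan gene Fmod at -0.99 ± 0.32 (edgeR adjusted p 0.183 to 0.320). Fmod is also in the tendon marker list, where 5 of 6 genes were below 0. Chad had 156, 145 and 738 reads in glycerol+melatonin and 885, 692 and 488 in glycerol, so replicate 3 lay with the glycerol mice. Col2a1, the collagen of resting cartilage, had 68, 100 and 154 reads in glycerol+melatonin and 183, 98 and 151 in glycerol (-0.65 ± 0.36, edgeR adjusted p = 0.349). The groups overlapped for Prg4, Col2a1 and Chad, while for Fmod they did not.

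Of 9 genes of hypertrophic cartilage and growth plate signalling, 6 were above 0 and 3 below (median 0.21). Mef2c, which muscle fibres use as well, was at 1.10 ± 0.28 and the angiogenic factor gene Vegfa at 0.82 ± 0.19 (edgeR adjusted p 0.142 and 0.134). Pthlh, which holds chondrocytes back from hypertrophy, had 74, 156 and 95 reads in glycerol+melatonin and 135, 177 and 120 in glycerol (-0.65 ± 0.27, edgeR adjusted p = 0.237). The hedgehog receptor gene Ptch1 was at -0.55 ± 0.25. The list therefore pointed in both directions while Col10a1 was lower.

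Of 13 osteoblast and osteocyte genes, 9 were below 0 and 4 above (median -0.37). The largest was osteomodulin, Omd, a keratan sulfate proteoglycan of bone, with 48, 53 and 32 reads in glycerol+melatonin and 61, 112 and 100 in glycerol. Its groups did not overlap (-1.24 ± 0.32, edgeR adjusted p = 0.141). The collagen I genes Col1a1 and Col1a2, shared by bone and all fibrous tissue, were each at -0.39. The fibro-adipogenic progenitor list, for stromal cells of muscle, summed to 852.9 to 953.6 CPM in glycerol+melatonin and 1021.6 to 1370.4 CPM in glycerol (8 of 8 genes). These sums did not overlap either, but the list split, with 4 genes below 0 (Dcn, Fbn1, Pdgfra and Osr1) and 4 above 0 (Ly6a, Cd34, Dpt and Pi16). Without Dcn, the most abundant of them and left out after the values were seen, the sums overlapped, at 484.6, 574.0 and 507.8 CPM in glycerol+melatonin and 521.0, 548.2 and 649.8 CPM in glycerol. The part of these cells in the lower Ibsp, Col10a1 and Omd values was not tested.

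Of 7 mineralisation genes, 4 were below 0 and 3 above (median -0.15), with 2 genes far out in opposite directions. Phospho1, a phosphatase that releases phosphate inside matrix vesicles, averaged 10.2 ± 5.55 CPM in glycerol+melatonin and 27.2 ± 6.51 CPM in glycerol (SD, n = 3 each; log2 fold change -1.41 ± 0.37, edgeR adjusted p = 0.148). The phosphate importer gene Slc20a1 averaged 64.0 ± 38.8 CPM in glycerol+melatonin and 23.7 ± 4.53 CPM in glycerol (SD, n = 3 each; 1.43 ± 0.39, edgeR adjusted p = 0.150). Muscle expresses both genes.

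Of 12 osteoclast genes, 6 were above 0 and 6 below (median -0.04). Tnfrsf11a, the receptor RANK that starts osteoclast formation, had 76, 102 and 69 reads in glycerol+melatonin and 132, 115 and 119 in glycerol, without overlap in CPM (-0.79 ± 0.23, edgeR adjusted p = 0.162). The proton pump subunit gene Tcirg1 was at 0.72 ± 0.23 (edgeR adjusted p = 0.185).

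Of 23 BMP pathway genes, 14 were below 0 and 9 above (median -0.11). Id1, a target that BMP receptors switch on, averaged 48.8 ± 8.99 CPM in glycerol+melatonin and 19.5 ± 2.78 CPM in glycerol (SD, n = 3 each; 1.32 ± 0.19, edgeR adjusted p = 0.0653). Its relative Id3 was at 0.81 ± 0.22 (edgeR adjusted p = 0.156). Id2 at -0.11 ± 0.15, Smad6 at -0.06 ± 0.24 and Smad7 at -0.15 ± 0.20 were near 0. Chrd was at 0.59 ± 0.20, Fst at 0.46 ± 0.17 and Bmp2 at 0.42 ± 0.19, each higher without overlap. In all, 6 of the 23 genes were higher without overlap and 3 lower, against 2206 and 2027 of the 16259 genes tested. The receptor genes Bmpr1a and Bmpr2 were at -0.58 ± 0.18 and -0.62 ± 0.21. Of the ligands, Bmp4 was at -0.77 ± 0.40 and Gdf5, a factor of joint formation, at 0.77 ± 0.28. Bmp4 had 317, 330 and 93 reads in glycerol+melatonin and 336, 390 and 361 in glycerol, and replicate 3 lay far below the other 2 mice of its group.

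Among 8 receptor genes for osteopontin and bone sialoprotein, integrin chains and Cd44, 5 were below 0 and 3 above (median -0.25), from Itga4 at -0.60 ± 0.27 to Itga5 at 0.50 ± 0.22 (edgeR adjusted p = 0.263 for both). Of 14 genes of aggrecan and proteoglycan turnover, 8 were above 0 and 6 below (median 0.08). The aggrecanase gene Adamts5 averaged 16.6 ± 1.26 CPM in glycerol+melatonin and 26.9 ± 2.15 CPM in glycerol, without overlap (SD, n = 3 each; -0.70 ± 0.15, edgeR adjusted p = 0.129).

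**Figure D4:**
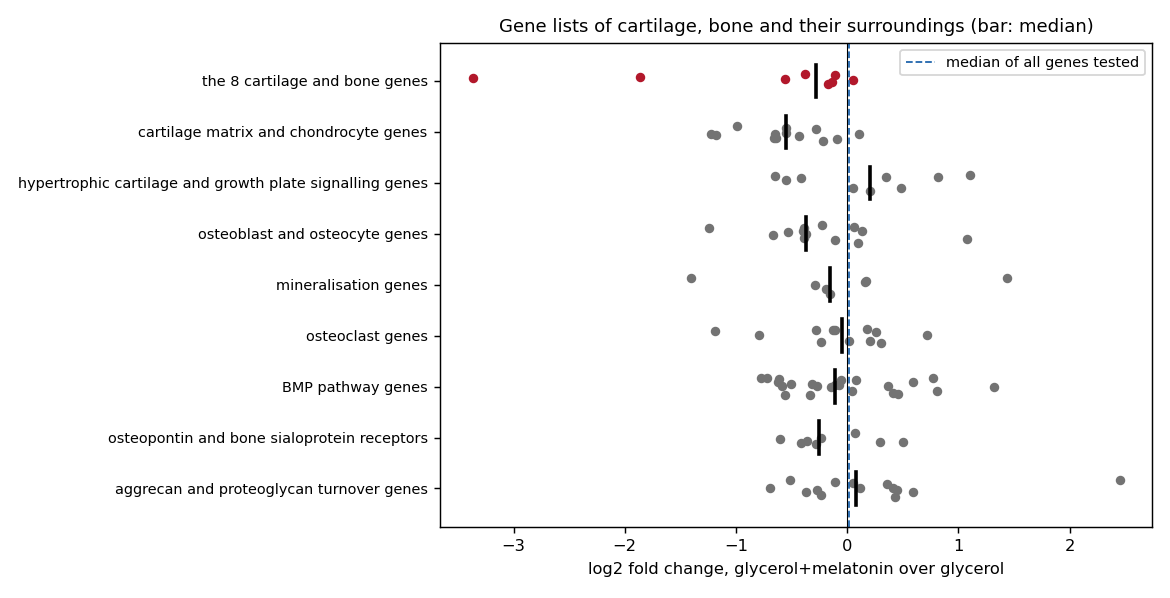
Log2 fold change of glycerol+melatonin over glycerol (horizontal axis) of each tested gene in the 8 cartilage and bone genes (red) and in 8 lists around them (grey), with black bars at list medians and a dashed line at the median of all genes (0.02). Ibsp and Col10a1 lie at -3.37 and -1.86, farther below 0 than every gene in the other lists.

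Genes whose CPM followed Ibsp most closely over the 6 libraries were sought by the root mean square difference of log2 values centred on each gene's mean. Nearest was Myoz3, a protein of the muscle Z-disc, at a distance of 0.532 log2 units, followed by Cyp2e1 (0.651), Pdpr (0.660), Slc19a2 (0.681) and Lrrc14b (0.757). Myoz3 had 483, 256 and 222 reads in glycerol+melatonin and 1917, 2112 and 1078 in glycerol. Nearest to Col10a1 were Pik3cb (0.223), Gpx1 (0.233), Limk1 (0.270), Chp1 (0.294) and Ptx4 (0.313). None of these 10 genes is in the cartilage and bone lists. This distance keeps the size of a change, so genes with a similarly large drop come nearest. The 10 genes were at log2 fold changes of -2.58 to -1.40, while the lowest gene of the 8 further lists was at -1.41. Their absence from the lists therefore says little about how cartilage and bone genes vary with Ibsp or Col10a1.

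**Figure D5:**
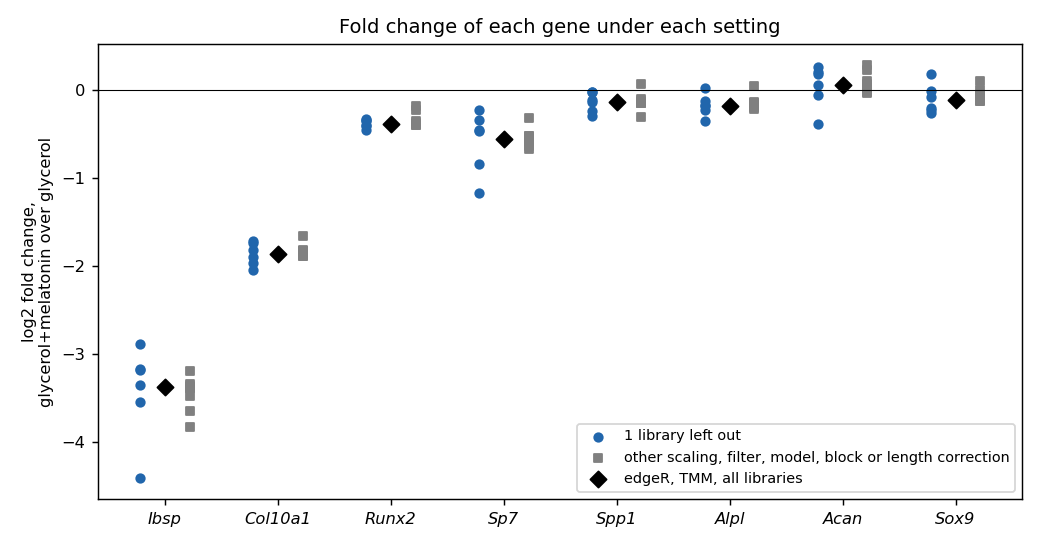
Log2 fold change of glycerol+melatonin over glycerol (vertical axis) of each of the 8 genes in the edgeR fit on all libraries (black), with 1 library left out (blue) and under the other settings (grey). Ibsp stays between -4.41 and -2.89 and Col10a1 between -2.04 and -1.66, while Spp1, Alpl, Acan and Sox9 have values on both sides of 0.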

How the data were processed

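RNA-seq of 6 libraries, 3 per group, was deposited by the authors as raw read counts per Ensembl gene. The submitters' processing notes list HISAT2 2.0, StringTie 1.3.3b, bedtools 2.26.0, DESeq2 1.12.4, Trimmomatic 0.36 and FastQC 0.11.2, and the build mm10. They do not say which tool counted the reads, or with what annotation or strand setting. In the deposited table the smallest total of a gene was 28 counts, so low genes had been removed before. The series' text calls the samples biological replicates. Columns were matched to samples by their treatment code and number.

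Symbols, positions and lengths came from GENCODE M21 (GRCm38, the same assembly as mm10), with 16260 of 16289 genes matched, and promoters from RefSeq on GRCm38.p6. The test was edgeR 4.0.16 (R 4.3.3), quasi-likelihood, with TMM factors, filterByExpr and no covariate, on all 6 libraries, with Benjamini-Hochberg adjustment over 16259 genes and a threshold of 0.05. The standard error is the log2 fold change divided by the square root of F. Poisson intervals cover counting error only. DESeq2 1.42.0, limma-voom (limma 3.58.1) and the other settings were alternatives. Scripts were tested on simulated counts. The 8 genes and all lists were chosen with earlier results of these data known. Named in each list were called genes and the 4 largest fold changes with a mean of at least 1 CPM, of which the text gives some, besides the 5 genes nearest to Ibsp and to Col10a1. Col2a1 is named as a defining marker. Id2, Smad6, Smad7, Chrd, Fst, Bmp2, Bmpr1a and Bmpr2 are named beside Id1 and Id3 and were chosen after their values were seen.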

Additional observations from a re-analysis of the deposited data

How the results depend on the processing

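Of 119 other values for the 8 genes, 106 kept their direction and side of the threshold. Ibsp (-3.38) and Col10a1 (-1.88) passed by DESeq2, which called 2 of the 8 genes and 744 genes in all. Leaving out 1 library moved Ibsp between -4.41 and -2.89, Acan between -0.38 and 0.26, Alpl between -0.35 and 0.02 and Sox9 between -0.26 and 0.18. It gave 0 to 1 calls among the 8 genes and 6 to 27 in all. With library size alone, which raised the median of all genes to 0.23, Alpl was at 0.05, Sox9 at 0.11 and Spp1 at 0.07, all below that median. Acan was at -0.03 by limma-voom, and Sox9 at 0 after the transcript length correction. At an adjusted p under 0.1, edgeR called 59 genes and 0 of the 8. Col10a1 could not be given with the filter of 1 CPM in at least 3 libraries, which removed it. The causes of these changes were not tested.

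With the replicate number as a block, 0 genes were called by edgeR (2991 at an unadjusted p under 0.05) and Acan was at -0.02. Deviations of libraries that share a number correlated at -0.0156, 0.00859 and -0.0525, and 0 of 6 correlated best with their own number. These values gave no sign of pairing by number, but with 3 mice a group they cannot exclude it. For the 6 genes other than Ibsp and Col10a1, a p above the threshold with 3 mice a group does not show equal levels.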

Other observations

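The hyaluronan synthase gene Has1, which makes the polymer that aggrecan binds, was chosen, like Has2, after its values were seen. It had 27, 100 and 40 reads in glycerol+melatonin and 2, 8 and 15 reads in glycerol (log2 fold change 2.45 ± 0.66, edgeR adjusted p = 0.150). The groups did not overlap. Has2 had 41, 80 and 53 reads in glycerol+melatonin and 30, 40 and 28 in glycerol (0.59 ± 0.31, edgeR adjusted p = 0.324). Ifitm5, a membrane protein gene of bone-forming cells, was also chosen after its values were seen and differed in the other direction from Ibsp. It had 34, 58 and 81 reads in glycerol+melatonin and 21, 17 and 32 in glycerol, with overlap in CPM (1.07 ± 0.41, edgeR adjusted p = 0.217). The collagenase gene Mmp13 of hypertrophic cartilage, chosen likewise, ranged from 79 to 143 reads in glycerol+melatonin and from 24 to 284 in glycerol (-0.42 ± 0.68, edgeR adjusted p = 0.767).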
